A study of Mus musculus with 7 samples.

Results

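The unfolded protein response (UPR) and the chaperones of the endoplasmic reticulum (ER) were followed in mouse precision-cut liver slices (PCLS) as a set of 42 genes. The members were picked by name for their known roles, as ER chaperones, oxidative folding enzymes, stress sensors and their outputs, parts of ER-associated degradation (ERAD), translocon subunits, regulators of ER calcium and ER-anchored CREB3 factors. All 42 were matched by Ensembl identifier in the table of 55487 genes, and 41 of them were among the 10876 genes counted highly enough to be tested. The slices were cut from livers of healthy male Balb/c mice without any genetic change and kept for 3 days in supplemented WME medium, either without VPA (CTR, 3 libraries) or with 2.5 mM VPA (VPA, 4 libraries). The study's methods give the age of its mice as a range of weeks, and the labels give no age for the single mice. VPA, the sodium salt of valproic acid, inhibits class I histone deacetylases. The question was how slices cultured with VPA differ in their transcripts from slices cultured without it. A slice holds hepatocytes, stellate cells, endothelial cells, macrophages and bile duct cells together, so fewer cells of a type and less RNA per cell cannot be told apart in any value below.

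As background, secreted and membrane proteins enter the ER through the Sec61 translocon and are folded there by BiP, GRP94, the lectin chaperones and the disulfide isomerases. When unfolded proteins accumulate, BiP leaves the sensors IRE1, PERK and ATF6. IRE1 splices Xbp1 mRNA, PERK phosphorylates eIF2α and thereby favours translation of ATF4, and ATF6 is cut in the Golgi to release a transcription factor. Their outputs raise chaperones and ERAD, and in prolonged stress CHOP. Hepatocytes secrete most plasma proteins and depend on this system, and stellate cells that make collagen use the same machinery.

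The libraries held 1400887 to 4773750 counts on genes, made by sequencing from the poly(A) end of transcripts, and totals were not separated by group (two-sided exact permutation test over 35 splits, p = 0.286). The number of genes with a count did separate the groups, with 17744 to 19756 genes in CTR and 14359 to 16761 genes in VPA libraries (exact permutation test, p = 0.0286), and its part in the results below was not tested. Levels are given as CPM, counts scaled to the size of the library after TMM normalization. A gene at 0 in a library could still have had up to 3 counts, or 0.591 CPM in the deepest and 2.41 CPM in the shallowest library, for counting error alone. Exact zeros were also found in well-counted genes. Of 6392 genes with a mean of at least 20 CPM, 626 (9.79%) were listed at 0 in at least 1 library, and each VPA library (99 to 332 such genes) held more of them than each CTR library (21 to 74). Among the 41 members tested, 5 (Hyou1, Creld2, Herpud1, Chac1 and Asns) had 1 to 3 libraries at 0, beside 25.0% of all genes tested with a library at 0. The source of these zeros was not tested. The marker genes of hepatocytes summed to 9231 to 22710 CPM in CTR and 5997 to 19607 CPM in VPA libraries, so the labelled tissue was recognised in every library. The 12 markers of activated stellate cells and myofibroblasts summed to 3592 to 5945 CPM in CTR and 1888 to 2710 CPM in VPA libraries (exact permutation test, p = 0.0286, which no split of these 7 libraries can go below), with 11 of the 12 lower and none of them at 0 in every library.

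No member passed an adjusted p of 0.05 in edgeR's quasi-likelihood test, against 0.00919% of all genes tested, which is the single gene Creb3l3. At an unadjusted p under 0.05, 3 members (7.32%) were higher with VPA, against 3.65% of all genes, and 3 members (7.32%) were lower, against 4.62% of all genes. The higher ones were Saraf, Ppp1r15a and Edem1, and the lower ones were Ssr1, Pdia3 and Canx. All VPA libraries lay above all CTR libraries for 3 members, Saraf, Edem1 and Atf6, against 4.44% of all genes. The opposite held for 3 others, Canx, Pdia3 and Ssr1, and this share of 7.32% was near the 7.41% found over all genes. The other 35 members tested overlapped between the groups, as did 88.1% of all genes tested. Of the 41 members, 24 (58.5%) had a negative and 17 a positive log2 fold change, with a median of −0.10, beside 54.2% negative and a median of −0.06 over all genes. In DESeq2, where 1.01% of all genes passed an adjusted p of 0.05, the member that passed was Saraf. In edgeR restricted to the 6652 genes that reached 10 counts in all 7 libraries, where 0.541% passed, it was again Saraf.

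**Figure D1:**
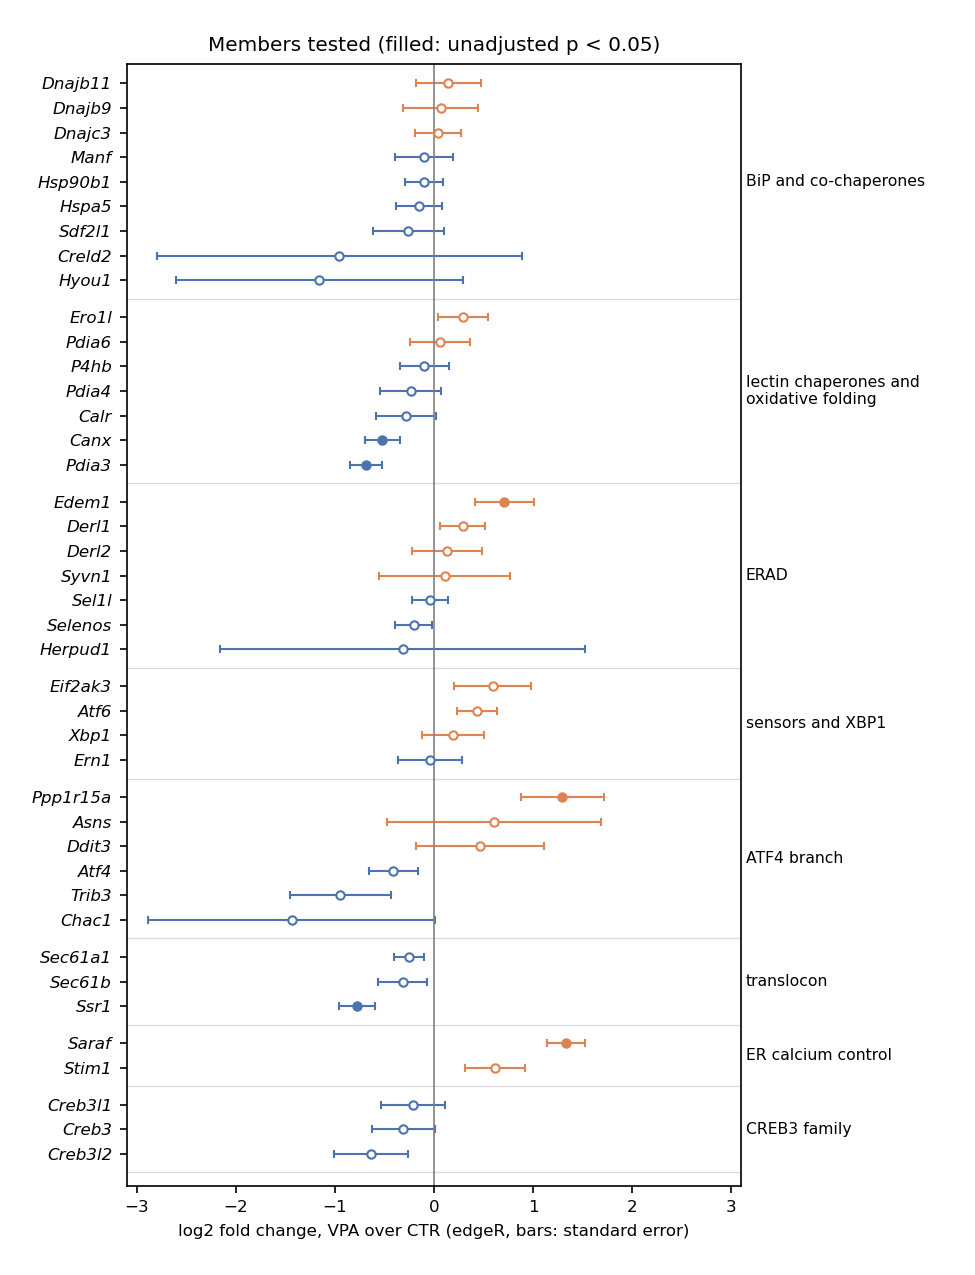
Log2 fold change of VPA over CTR for the 41 members tested, by role, from edgeR, with bars of 1 standard error (3 CTR and 4 VPA libraries). Filled points have an unadjusted p under 0.05; Saraf at 1.33 and Ppp1r15a at 1.30 lie farthest to the right among them, Ssr1 at −0.78 farthest to the left, and the widest bars belong to members with libraries at 0.

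**Figure D2:**
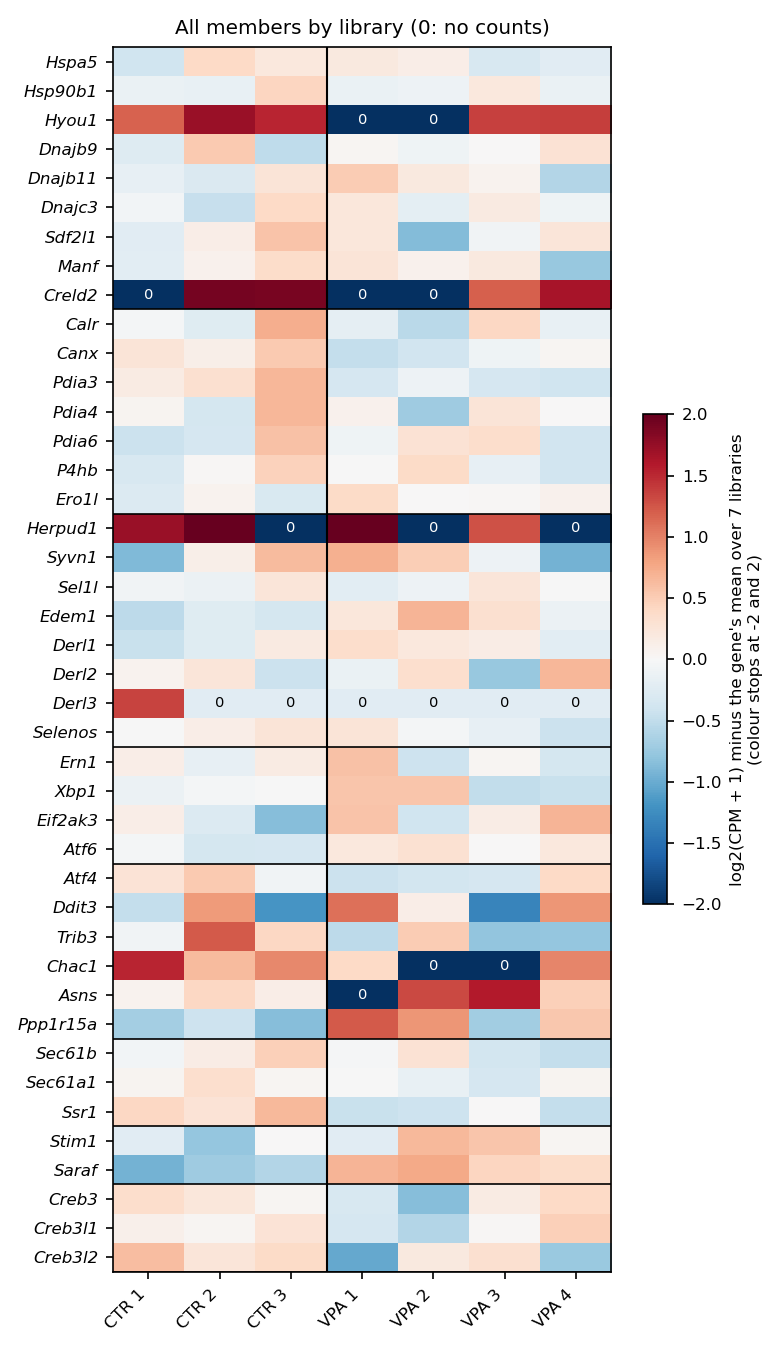
Level of all 42 members in each library as log2(CPM + 1) minus the gene's mean over the 7 libraries, with CTR left and VPA right of the vertical line and a printed 0 where a library had no counts. Saraf is below its mean in every CTR and above it in every VPA library, while Hspa5 and Hsp90b1 stay pale in every library.

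The sensors and XBP1 come first in the pathway, and none of these 4 genes passed at an unadjusted p of 0.05. Atf6, which encodes the sensor released by Golgi proteolysis, had 39.4, 31.5 and 31.8 CPM in CTR replicates 1 to 3 and 47.0, 50.1, 40.9 and 46.8 CPM in VPA replicates 1 to 4. The groups did not overlap, although VPA replicate 3 came close to CTR replicate 1, and the log2 fold change reached 0.43 (standard error 0.21, unadjusted p = 0.0694, adjusted p = 0.650 from edgeR). Eif2ak3, which encodes PERK, had 30.3, 22.5 and 14.8 CPM in CTR and 41.1, 20.6, 30.5 and 44.6 CPM in VPA libraries. Its groups overlapped through VPA replicate 2, and its log2 fold change of 0.59 had a standard error of 0.39. Ern1, which encodes IRE1α, had 34.3, 27.8 and 35.1 CPM in CTR and 47.0, 23.1, 32.1 and 24.2 CPM in VPA libraries, with a log2 fold change of −0.04 (standard error 0.32). The CTR libraries of Ern1 lay inside the VPA range. Xbp1, the factor made from the mRNA that IRE1 splices, had 68.6, 71.9 and 73.5 CPM in CTR and 109, 110, 52.2 and 54.4 CPM in VPA libraries. VPA replicates 1 and 2 were above and VPA replicates 3 and 4 below all CTR libraries, so the VPA group spread by an SD of 32.4 CPM where the CTR group spread by 2.51 CPM. The log2 fold change of Xbp1 was 0.20 (standard error 0.31). Counts per gene do not separate spliced from unspliced Xbp1 mRNA.

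BiP and its partners are the genes most widely read as outputs of ER stress. The 9 members had a median log2 fold change of −0.10, beside −0.06 over all genes, and all 9 overlapped between the groups, as did 88.1% of all genes. Hspa5, which encodes BiP, had 957, 1660 and 1463 CPM in CTR and 1449, 1373, 1008 and 1075 CPM in VPA libraries. All 4 VPA libraries lay inside the CTR range, giving −0.15 as log2 fold change (standard error 0.23) at an adjusted p of 0.945 in edgeR. Hsp90b1, which encodes GRP94, had 571, 565 and 840 CPM in CTR and 569, 585, 727 and 573 CPM in VPA libraries, with a log2 fold change of −0.10 (standard error 0.19). The J-domain co-chaperones Dnajb9, Dnajb11 and Dnajc3 had log2 fold changes of 0.07, 0.15 and 0.04, and the BiP cofactors Manf and Sdf2l1 had −0.10 and −0.26. Hyou1, which encodes the BiP nucleotide exchange factor GRP170, had 26.0, 38.4 and 33.4 CPM in CTR libraries, was listed at 0 in VPA replicates 1 and 2, and had 29.7 and 30.2 CPM in VPA replicates 3 and 4. The VPA libraries with counts thus lay within the CTR range, and its log2 fold change of −1.15 (standard error 1.45) rests on the libraries at 0. Creld2, an ER protein induced by ER stress, was listed at 0 in CTR replicate 1 and VPA replicates 1 and 2 and had 9.63 to 16.6 CPM in the other libraries.

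Some of the members' promoters hold an element of ER stress genes. Its letters were not used to choose the members, but their known roles were. Its frequency among them is therefore not independent of the choice. The ER stress element (ERSE), which ATF6 binds together with NF-Y, was searched on both strands as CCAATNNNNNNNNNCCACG in the window from 250 bases before to 50 bases after each RefSeq start site (GRCm38.p6). Windows were found for 35 of the 42 members, and none was in the table used here for Hyou1, Manf, Derl1, Atf6, Sec61a1, Saraf and Creb3l1. The element occurred in 9 of the 35 members (25.7%) and in 39 of all 32851 windows (0.119%). Of the 9 chaperone genes above, it was found in Hspa5, Hsp90b1, Dnajc3 and Creld2, and Dnajb9, Dnajb11 and Sdf2l1 had a window without it. The matches are shown as a description of the genes picked, and the higher frequency of the element among them is not a result about the slices. The 10 matches are written 5′ to 3′ on the strand that carries the motif, with the fixed letters in capitals and the free spacer in lower case.
Hspa5, chr2:34772025-34772043, + strand: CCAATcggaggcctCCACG
Hsp90b1, chr10:86705533-86705551, + strand: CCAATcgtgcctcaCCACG
Hsp90b1, chr10:86705638-86705656, − strand: CCAATcgcaaggagCCACG
Dnajc3, chr14:118937827-118937845, + strand: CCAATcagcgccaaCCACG
Creld2, chr15:88819520-88819538, − strand: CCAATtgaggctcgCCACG
Calr, chr8:84847075-84847093, + strand: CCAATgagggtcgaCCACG
Canx, chr11:50325800-50325818, − strand: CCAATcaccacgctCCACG
Pdia6, chr12:17266491-17266509, + strand: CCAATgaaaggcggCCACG
Syvn1, chr19:6046532-6046550, + strand: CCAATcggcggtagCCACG
Derl3, chr10:75893242-75893260, − strand: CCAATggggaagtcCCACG

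The match in Hspa5 lay 65 to 47 bases before the start site, and the match nearest to a start was that of Syvn1, 44 to 26 bases before it. The 250 bases upstream of Hspa5 (chr2:34771840-34772089, + strand) are printed as the reference case of the element, which is in capitals.
Hspa5: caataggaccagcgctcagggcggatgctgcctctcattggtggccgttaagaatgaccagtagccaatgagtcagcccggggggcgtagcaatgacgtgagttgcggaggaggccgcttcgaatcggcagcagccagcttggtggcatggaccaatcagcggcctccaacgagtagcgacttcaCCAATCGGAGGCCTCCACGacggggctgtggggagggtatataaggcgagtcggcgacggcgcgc

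The 8 tested members with an ERSE had a median log2 fold change of −0.13 and the 26 members with a window but no exact ERSE had −0.07, beside −0.06 over all genes. A related element, ERSE-II (ATTGGNCCACG), was found in Dnajb11 and Herpud1 and in 0.0365% of all windows. The UPR element TGACGTGG was in no member window and in 0.676% of all windows. All motifs were searched on both strands. ERSE and ERSE-II share the letters CCACG. A match describes these letters only, and no match says nothing about binding elsewhere.

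Lectin chaperones and oxidative folding enzymes held 2 of the lower members. Pdia3 (ENSMUSG00000027248, chr2:121413775-121438687, + strand), which encodes ERp57, the disulfide isomerase that works with calnexin and calreticulin, had 438, 486 and 620 CPM in CTR and 308, 364, 308 and 296 CPM in VPA libraries. Every VPA library was below every CTR library, which gave a log2 fold change of −0.69 (standard error 0.16, unadjusted p = 0.00307, adjusted p = 0.295 from edgeR). Canx (ENSMUSG00000020368, chr11:50293961-50325673, − strand), which encodes calnexin, had 494, 452 and 595 CPM in CTR and 297, 318, 392 and 427 CPM in VPA libraries. The groups did not overlap, VPA replicate 4 being closest to CTR replicate 2, with −0.52 as log2 fold change (standard error 0.18, unadjusted p = 0.0204, adjusted p = 0.514 from edgeR). The unadjusted p was 0.0737 without CTR replicate 3, 0.0534 without VPA replicate 1 and 0.0544 without VPA replicate 2. Calr, which encodes calreticulin, the soluble relative of calnexin, overlapped, with 901, 775 and 1525 CPM in CTR and 816, 636, 1229 and 834 CPM in VPA libraries. Its log2 fold change was −0.28 (standard error 0.30). The isomerases Pdia4 and Pdia6 had −0.23 and 0.06, the oxidase gene Ero1l had 0.29, and P4hb, whose product is also a subunit of collagen prolyl 4-hydroxylase, had −0.10. The stellate cell and myofibroblast markers were lower in the same libraries (median log2 fold change −1.04), and their part in the lower levels of Pdia3 and Canx was not tested. Hepatocyte markers had a median of 0.27 and overlapped between the groups (exact permutation test, p = 0.886).

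Canx was the ERSE-bearing member without overlap between the groups, so its 250 upstream bases (chr11:50325674-50325923, − strand) are shown, again with the element in capitals.
Canx: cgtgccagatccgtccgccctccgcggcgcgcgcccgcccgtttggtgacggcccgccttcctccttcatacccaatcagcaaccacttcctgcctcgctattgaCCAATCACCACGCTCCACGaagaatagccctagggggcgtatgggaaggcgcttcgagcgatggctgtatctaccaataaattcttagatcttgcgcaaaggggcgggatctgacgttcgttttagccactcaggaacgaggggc

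**Figure D3:**
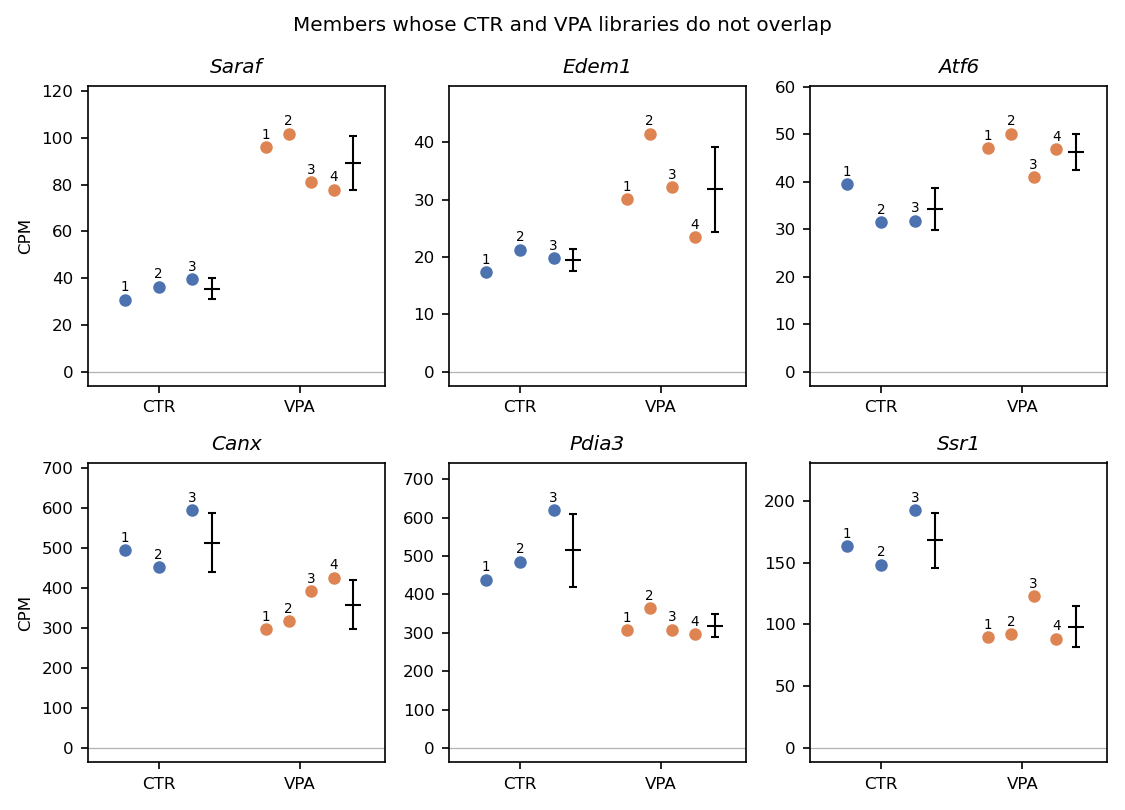
CPM of the 6 members whose CTR and VPA libraries did not overlap, 1 point per library labelled with its replicate number, beside the mean and SD of the group (bar; n = 3 CTR and 4 VPA). Saraf, Edem1 and Atf6 are higher and Canx, Pdia3 and Ssr1 lower in all 4 VPA libraries, with the widest relative gap for Saraf.

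The 7 degradation genes tested had a median log2 fold change of 0.11, beside −0.06 over all genes. Edem1 (ENSMUSG00000030104, chr6:108828641-108859356, + strand), which encodes a mannosidase-like protein that marks misfolded glycoproteins for ERAD, had 17.3, 21.3 and 19.7 CPM in CTR and 30.0, 41.5, 32.1 and 23.4 CPM in VPA libraries. All VPA libraries were higher, the gap between VPA replicate 4 and CTR replicate 2 being the smallest, for a log2 fold change of 0.71 (standard error 0.30, unadjusted p = 0.0462, adjusted p = 0.589 from edgeR). The unadjusted p lay between 0.0523 and 0.140 when CTR replicate 1, 2 or 3 or VPA replicate 1, 2 or 3 was left out. It was 0.0625 with the mPCLS number of the sample titles as a replicate block, 0.0550 with replicate number as the block, 0.0675 in DESeq2 and 0.119 without a filter on low counts. Sel1l, the adaptor of the ubiquitin ligase HRD1, had a log2 fold change of −0.04 (standard error 0.18), and Syvn1, which encodes HRD1 itself, had 0.11 (standard error 0.66). The derlin genes Derl1 and Derl2, for membrane proteins of the retrotranslocation complex, had 0.29 and 0.13, and Selenos, whose product recruits p97 to derlins, had −0.20. Herpud1, a scaffold of the same complex and a classic UPR target, had 20.1, 30.4 and 0 CPM in CTR and 40.5, 0, 14.5 and 0 CPM in VPA libraries, so that zeros stood beside moderate levels in both groups. Derl3 was counted 5 times in CTR replicate 1 and not at all in the other 6 libraries, and did not pass the filter on low counts. Derl3 is strong in plasma cells, whose 7 markers summed to 78.9 to 98.9 CPM in CTR and 37.0 to 71.2 CPM in VPA libraries (exact permutation test, p = 0.0571). Most of this sum was Sdc1, which other cells also express and which was counted in all 7 libraries, while Igkc was counted in 6 libraries at up to 30.6 CPM, Ighm and Jchain were each counted in 2 CTR libraries only, and Mzb1, Tnfrsf17 and Pou2af1 were at 0 in every library. The part of plasma cells in the Derl3 counts was not tested.

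The 6 genes of the ATF4 branch had a median log2 fold change of 0.03, beside −0.06 over all genes. Atf4 had 588, 696 and 464 CPM in CTR and 360, 375, 385 and 639 CPM in VPA libraries. VPA replicates 1 to 3 were below all CTR libraries and VPA replicate 4 was inside their range. This gave −0.41 as log2 fold change (standard error 0.25) at an adjusted p of 0.763 in edgeR. With a library left out, the log2 fold change ran from −0.65 to −0.27 (unadjusted p from edgeR 0.00930 to 0.375). The value of −0.65 came from leaving out VPA replicate 4, the VPA library inside the CTR range. The unadjusted p was under 0.05 in 2 of 15 alternatives. ATF4 is controlled chiefly at translation, which counts of mRNA do not show. Ddit3, which encodes CHOP, had 103, 260 and 63.0 CPM in CTR and 311, 157, 57.0 and 267 CPM in VPA libraries, and its log2 fold change of 0.47 had a standard error of 0.65. It was 1.24 without CTR replicate 2 and 0.10 without CTR replicate 3. Its 3′ end lies inside Mars on the other strand, and the use of strand in counting is not known. High and low libraries were found in both groups.

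Ppp1r15a (ENSMUSG00000040435, chr7:45522916-45526268, − strand) encodes GADD34, which directs a phosphatase to eIF2α and so ends the block of translation. It had 50.04, 60.9 and 44.4 CPM in CTR and 192, 150, 49.8 and 118 CPM in VPA libraries. VPA replicates 1, 2 and 4 were above all CTR libraries and VPA replicate 3 was level with CTR replicate 1. The log2 fold change was 1.30 (standard error 0.42, unadjusted p = 0.0162, adjusted p = 0.476 from edgeR), and 1.56 (unadjusted p = 0.000432) without VPA replicate 3, while the unadjusted p was 0.0546 without CTR replicate 3. Its window held the cyclic AMP response element TGACGTCA, which was in 1.79% of all windows and in no other member window; the 250 upstream bases (chr7:45526269-45526518, − strand) are printed with it in capitals, 12 to 5 bases before the start.
Ppp1r15a: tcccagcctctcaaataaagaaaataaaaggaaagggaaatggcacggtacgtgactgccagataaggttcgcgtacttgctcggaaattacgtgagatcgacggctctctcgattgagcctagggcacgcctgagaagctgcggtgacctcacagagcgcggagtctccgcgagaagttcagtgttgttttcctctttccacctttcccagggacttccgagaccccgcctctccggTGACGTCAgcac

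The other targets of ATF4 went in several directions without passing the test. Trib3, a pseudokinase gene, had 16.5, 42.2 and 23.6 CPM in CTR and 11.8, 25.2, 9.63 and 9.82 CPM in VPA libraries, with a log2 fold change of −0.94 (standard error 0.51). Asns, for asparagine synthetase, had 15.8 to 20.1 CPM in CTR libraries and 0, 38.7, 46.6 and 21.1 CPM in VPA libraries, so VPA replicates 2 to 4 were above all CTR libraries and VPA replicate 1 was listed at 0. Chac1, which degrades glutathione, had 6.31 to 12.6 CPM in CTR and 5.22, 0, 0 and 8.31 CPM in VPA libraries. The ATF4 composite element TGATGCAA was found in the windows of Chac1 and Herpud1 and in 0.895% of all windows.

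**Figure D4:**
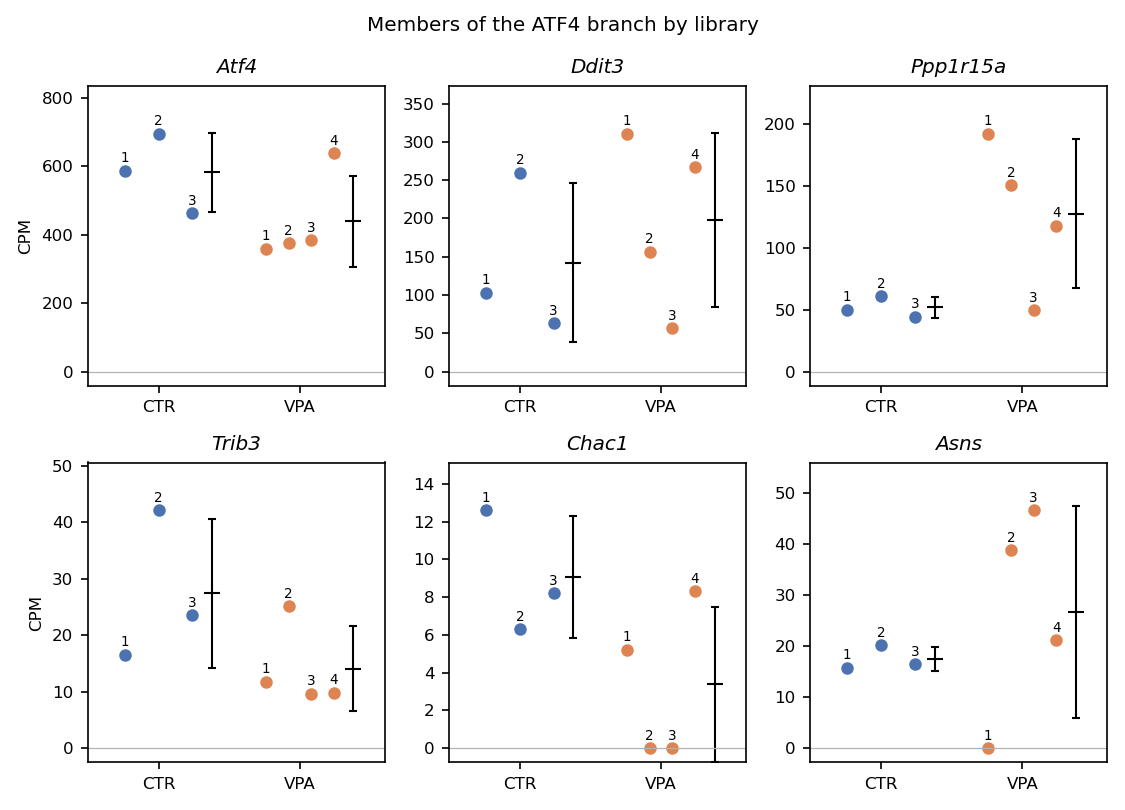
CPM of the 6 members of the ATF4 branch, 1 point per library labelled with its replicate number, beside the mean and SD of the group (bar; n = 3 CTR and 4 VPA). Ppp1r15a is above the CTR libraries in VPA replicates 1, 2 and 4 only, Atf4 is high in VPA replicate 4, and Chac1 and Asns have libraries at 0.

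All 3 translocon members had lower means with VPA, beside 54.2% of all genes with a negative log2 fold change, and 1 stood apart. Of the 31 further genes listed with the translocon and tested, 15 had a positive and 16 a negative log2 fold change. Ssr1 (ENSMUSG00000021427, chr13:37966605-37994217, − strand), which encodes TRAPα, a subunit of the complex beside the Sec61 pore, had 164, 148 and 192 CPM in CTR and 89.4, 92.2, 123 and 88.4 CPM in VPA libraries. All VPA libraries were below all CTR libraries, and VPA over CTR was −0.78 on the log2 scale (standard error 0.18, unadjusted p = 0.00269, adjusted p = 0.295 from edgeR). Sec61a1, the pore subunit, had a log2 fold change of −0.25 (standard error 0.15) and Sec61b had −0.32 (standard error 0.25), both with overlap. The stellate cell and myofibroblast markers given above were also lower in the VPA libraries, and their part in the level of Ssr1 was not tested.

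Both genes of ER calcium control had higher means with VPA, beside 4982 of all 10876 genes tested with a positive log2 fold change. Of the 9 further calcium genes tested, 4 had a positive and 5 a negative log2 fold change. Saraf (ENSMUSG00000031532, chr8:34154575-34170821, + strand) encodes an ER membrane protein that inhibits store-operated calcium entry, and had the smallest p of all members. It had 30.7, 36.3 and 39.5 CPM in CTR and 96.0, 102, 81.1 and 77.8 CPM in VPA libraries. The lowest VPA library was thus well above the highest CTR library, and the means were 35.5 ± 4.42 CPM (SD, n = 3) and 89.2 ± 11.5 CPM (SD, n = 4), a ratio of 2.51. The log2 fold change was 1.33 (standard error 0.19, unadjusted p = 0.000148, adjusted p = 0.112 from edgeR). Saraf passed an adjusted p of 0.05 in DESeq2 (0.000265) and in edgeR restricted to genes that reached 10 counts in all 7 libraries (0.0264), and its adjusted p ran from 0.000265 to 0.727 over 15 alternatives, with a log2 fold change between 1.23 and 1.39. Stim1, the sensor of ER calcium that opens the channels which SARAF restrains, had 45.3, 30.6 and 53.2 CPM in CTR and 45.05, 83.9, 78.7 and 54.4 CPM in VPA libraries. VPA replicate 1 lay inside the CTR range, and Stim1 differed by 0.62 on the log2 scale (standard error 0.30, unadjusted p = 0.0795).

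The CREB3 factors are held in the ER membrane and cut in the Golgi like ATF6. Creb3 had 57.9, 53.2 and 46.6 CPM in CTR and 35.9, 24.6, 50.6 and 59.7 CPM in VPA libraries, with a log2 fold change of −0.31 (standard error 0.32). Creb3l1, which encodes OASIS, a factor of matrix-making cells, had a log2 fold change of −0.21 (standard error 0.32). Creb3l2, which encodes BBF2H7, had 63.8, 48.9 and 53.7 CPM in CTR and 19.6, 47.3, 51.4 and 24.2 CPM in VPA libraries, with a log2 fold change of −0.63 (standard error 0.37). All 3 overlapped between the groups. The liver relative Creb3l3, which is no member, had 117.8, 78.8 and 115 CPM in CTR and 689, 520, 668 and 603 CPM in VPA libraries, that is 2.58 on the log2 scale (adjusted p = 0.0247 from edgeR). Its log2 fold change stayed between 2.40 and 2.67 over 15 alternatives, but the adjusted p missed 0.05 in 8 of them, reaching 0.306 and 0.223 with the 2 replicate blocks and 0.0501 to 0.244 on leaving out any library but VPA replicate 2.

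Beyond the members, 118 other genes of the same pathways were listed, of which 105 were tested. Of these, 47 had a positive and 58 a negative log2 fold change, with a median of −0.06. At an unadjusted p under 0.05, 7 (6.67%) were higher, against 3.65% of all genes tested, and 6 (5.71%) were lower, against 4.62% of all genes tested. The higher ones beside Creb3l3 were Hspa13, an Hsp70 relative, with a log2 fold change of 0.73, the ERAD genes Edem2 and Ube2g2 with 1.15 and 1.45, Ppp1r15b, which encodes the constitutive partner of the same eIF2α phosphatase as GADD34, with 0.69, the C/EBP factor gene Cebpg with 0.86, and the signal recognition particle receptor gene Srpr with 0.70. The lower ones were Vcp, which encodes the p97 segregase of ERAD, with −0.47, the antioxidant factor gene Nfe2l2 with −1.10, the ATF4 relative Atf5 with −0.91, the cystine carrier gene Slc7a11 with −1.09, Trib1 with −0.92, and the oligosaccharyltransferase subunit gene Rpn2 with −0.44. Apart from Creb3l3, none of these had an adjusted p under 0.05. Of the 16 further ERAD genes tested, 2 (12.5%) were higher and 1 (6.25%) was lower at an unadjusted p under 0.05. Of the 21 further genes of the ATF4 branch tested, 2 (9.52%) were higher and 3 (14.3%) were lower. So few calls are not read as a result for either group of genes. None of the 9 calcium genes tested beside the members passed at an unadjusted p of 0.05.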

How the data were processed

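RNA came from mouse PCLS on day 3 of culture. Per the labels and the study's methods, the authors made 3′ end libraries, mapped single-end reads to GRCm38 with STAR, used StringTie for assembly and deposited raw counts per Ensembl gene, 1 column per library, without normalization. How counting treated strand and multiply mapped reads, and by which program, is not given in the sources used here. The 3′ ends of 8 members (Creb3, Ddit3, Dnajb11, Hsp90b1, Manf, Pdia6, Ppp1r15a and Syvn1) lie inside a gene on the other strand, so their counts are uncertain. A second Ensembl identifier named Ddit3 held 1 count in all and was not used.

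Symbols and coordinates came from GENCODE M21 (GRCm38), which named 55141 of 55487 genes. Fits were made in R 4.3.3 by edgeR 4.0.16 (TMM, filterByExpr, robust quasi-likelihood test, group as the only term, Benjamini-Hochberg adjustment over 10876 genes); the standard error of a log2 fold change is its size divided by the square root of the F statistic. DESeq2 1.42.0, which the study names, and limma 3.58.1 (voom) were alternatives. A prior count of 2 was added for log2 CPM. Single measures were compared by a two-sided exact permutation test over 35 splits, with a smallest p of 0.0286. The code was tested on simulated data. Promoter windows came from RefSeq.

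The members, the lists of related genes and markers, and the tests were chosen with earlier results of these data known. Members with an unadjusted p under 0.05 or no overlap between the groups, and Hspa5, Xbp1, Ern1, Eif2ak3, Atf6, Atf4 and Ddit3, were described in full; related genes were named at an unadjusted p under 0.05. Alternatives were other tests, normalizations and filters, replicate blocks, and leaving out each library. No 2 libraries of a group were alike to within counting noise (chi-square over its degrees of freedom 14.7 to 27.3), so none was taken as a repeat deposit. The study's methods count 1 liver as 1 biological repeat, and the labels do not tie single libraries to mice, so p-values measure the spread between these samples.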

Additional observations from a re-analysis of the deposited data

Results flagged for a closer look

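In 43 measures of the VPA group, the total count and the CPM of each member, 5 had a library far from the other 3 by Dixon's criterion; chance gives this in about 1 in 20 such groups (a share of 0.05). The total of VPA replicate 2 was 3102450, and the other totals were 1400887 to 1515954. Hsp90b1 was at 727 CPM in VPA replicate 3 and at 569 to 585 CPM in the others. Atf4 was at 639 CPM in VPA replicate 4 and at 360 to 385 CPM in the others. Trib3 was at 25.2 CPM in VPA replicate 2 and at 9.63 to 11.8 CPM in the others. Ssr1 was at 123 CPM in VPA replicate 3 and at 88.4 to 92.2 CPM in the others, still below every CTR library. What sets these libraries apart was not tested.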

How the results depend on the processing

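The count of 0 members at an adjusted p under 0.05 became 1 (Saraf) with DESeq2 and 1 (Saraf) in edgeR over genes with at least 10 counts in every library, a smaller set of genes with a biological coefficient of variation of 0.283 (0.609 in the main test). It stayed at 0 with limma-voom, RLE normalization, no filter, no robust estimation, either replicate block, an adjusted p of 0.1 and every omission of a library. The 3 members higher at an unadjusted p under 0.05 became 5 with limma-voom and 1 to 4 when a library was left out, with 1 without CTR replicate 3. The count of lower members stayed within 2 to 4. The 6 members without overlap became 8 to 10 with a library left out, 10 without VPA replicate 4, where fewer libraries are compared. For counts at an unadjusted p and without overlap, the share over all genes is not given under these alternatives. A changed count is therefore not read as a change of the members. The median log2 fold change of −0.10 became −0.19 without a filter, where that of all genes went from −0.06 to −0.16. It was −0.24 without CTR replicate 1 and 0.032 without CTR replicate 3, the ends of the range over omitted libraries, with all genes at −0.06 and −0.08.

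The mPCLS numbers of the sample titles (71, 72 and 74) and the replicate numbers (1, 2 and 3) occur in both groups. The labels do not give the meaning of the mPCLS numbers, nor whether libraries with the same number came from the same liver. The correlation of deviations was 0.107 for mPCLS number 71, 0.0256 for 72 and 0.0546 for 74, while replicate number 1 gave −0.0539, number 2 gave 0.0546 and number 3 gave 0.107. The 2 numberings share the pairs of mPCLS numbers 74 and 71, which are replicates 2 and 3 in both groups. Mismatched pairs were not compared, so these correlations cannot decide whether either numbering pairs the libraries. The main test used no pairing, and a block by each numbering was an alternative. With the replicate block by mPCLS number the median of the members was −0.18 (all genes −0.09) and the log2 fold change of Xbp1 was −0.057 in place of 0.20; with the replicate block by replicate number the median was −0.054 (all genes −0.14) and the log2 fold change of Ern1 was 0.019. Leaving out libraries turned Hspa5 (−0.36 to 0.011, positive without CTR replicate 2) and Ern1 (−0.29 to 0.10, positive without VPA replicate 2 or 4), both near 0. At the unadjusted p of 0.05 by which members were named, 17 of 195 values for 13 members changed sides under an alternative, 14 of them losing the call (Edem1 in 10 of 15, Canx in 3, Ppp1r15a in 1) and 3 gaining it (Atf4 in 2, Atf6 in 1). The replicate block by mPCLS number took the call from Edem1 (unadjusted p from edgeR 0.0625), and that by replicate number took it from Edem1 (0.0550) and gave it to Atf4 (0.0188). The cause of these differences was not tested. In the smallest library 3 counts amount to 2.41 CPM, which limits what can be said of members near 10 CPM.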

Other observations

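The VPA libraries also differed among themselves along a few members and related genes, which were singled out after their values were seen. VPA replicate 3 was the lowest VPA library for Ddit3 (57.0 CPM against 157 to 311 CPM in the others) and for Ppp1r15a (49.8 against 118 to 192 CPM). It was also the lowest for the related genes Edem2 (16.1 against 30.2 to 49.0 CPM), Ube2g2 (27.3 against 49.1 to 82.7 CPM), Cebpg (28.1 against 62.0 to 70.99 CPM) and Ppp1r15b (70.6 against 76.3 to 114 CPM). The same held for the related gene Hspa13 by a smaller gap (41.7 against 44.6 to 47.0 CPM). Other genes did not follow this order: in VPA replicate 3 the level of Saraf was 81.1 CPM and that of Creb3l3 668 CPM, both inside the range of the other VPA libraries, Srpr was lowest in VPA replicate 4 (53.6 CPM), and Asns was highest in VPA replicate 3 (46.6 CPM).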
